A study of Homo sapiens with 4 samples.

Results

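The heat shock protein genes of HCT116 cells, an established human colon cancer line, were examined after treatment with the compound N_12. The genes were taken by symbol: every listed gene of the numbered HSPA (HSP70 and HSP110), HSPB (small heat shock protein), DNAJA and DNAJB (J-domain protein) series, together with HSPH1, HSPD1, HSPE1, HSP90AA1, HSP90AB1, TRAP1, HSF1, HSF2 and BAG3. HSPA5, DNAJB9 and DNAJB11, which act in the lumen of the endoplasmic reticulum, the similarly named HSPBP1 and HSPBAP1, and hyphenated read-through names were left out. This gave 43 of the 20263 listed genes, and 38 of them passed the expression filter. The set is wider than cytosol and mitochondria: HSPA13 and the membrane-anchored J-domain proteins DNAJB12 and DNAJB14 belong to the endoplasmic reticulum, and HSF1 and HSF2 are transcription factors. Genes that bear such a name only as a synonym were not taken. These are CRYAA (HSPB4), CRYAB (HSPB5), ODF1 (HSPB10), IFT25 (HSPB11) and DNAJC21 (DNAJA5).

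RNA was sequenced from 2 libraries of cells given N_12 for 24 h and 2 libraries of cells given the solvent DMSO. Both groups were grown in medium with 10% fetal bovine serum and antibiotics. The series describes N_12 as a nilotinib derivative, nilotinib being a kinase inhibitor. Under treatment these samples bear the different code HJJ_3_5, and no dose is labelled. Total counts were 41717938 and 39865327 in N_12 replicates 1 and 2, and 31120459 and 29769568 in DMSO replicates 1 and 2. Nothing in the labels says that replicates were separate cultures, so every p-value here reflects library-to-library spread, which could be purely technical. Epithelial markers were present, with EPCAM at 216 and 181 CPM (counts scaled to library size after TMM normalisation) in N_12 libraries and 276 and 253 CPM in DMSO libraries. VIL1, another marker of colon epithelium, did not exceed 0.131 CPM. Of 4 leukocyte markers PTPRC and CD3E had 0 counts in every library, and the list summed to at most 0.546 CPM. Of 5 fibroblast markers COL1A2 and DCN had 0 counts in every library, while COL1A1 stood at 55.1 and 59.97 CPM in N_12 libraries and 64.5 and 60.8 CPM in DMSO libraries.

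Heat shock proteins are chaperones that bind unfolded or unstable polypeptides. HSP70 proteins work in cycles of ATP binding and release, in which J-domain proteins deliver the client and HSP110 and BAG proteins exchange the nucleotide. HSP90 then takes over clients such as kinases and hormone receptors, small heat shock proteins hold aggregating proteins, and HSPA9, HSPD1, HSPE1, TRAP1 and DNAJA3 serve inside mitochondria. Under proteotoxic stress the transcription factor HSF1 binds heat shock elements and raises inducible members such as HSPA1A, HSPA1B, DNAJB1, HSPH1 and BAG3, while HSPA8 and HSP90AB1 are made constitutively.

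N_12 libraries showed no common movement of these genes. HSPH1, the HSP110 nucleotide exchange factor of cytosolic HSP70, rose 2.01-fold, and DNAJB1, the main inducible J-domain partner of HSP70, fell 1.91-fold. These were the only members called by edgeR's quasi-likelihood test at the 0.05 threshold, with p-values adjusted across the whole table by the Benjamini-Hochberg method. Of the 38 tested members, 19 lay above 0 and 19 below 0. Their median log2 fold change was 0.0048, against 0.0092 over all 14105 tested genes. The same test called 317 of those genes, or 2.25%, with 0.822% of all tested genes called higher and 1.43% called lower. Against this background, 1 member called in each direction is too few to set these genes apart. At an unadjusted p of 0.05, 5 members were higher and 5 lower, against 21.8% of all tested genes. Both N_12 libraries lay above both DMSO libraries for 14 tested members and below them for 14. Over all tested genes these shares were 27.9% and 26.8%. In bulk RNA of this kind, fewer cells of a type and less RNA per cell cannot be told apart.

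**Figure D1:**
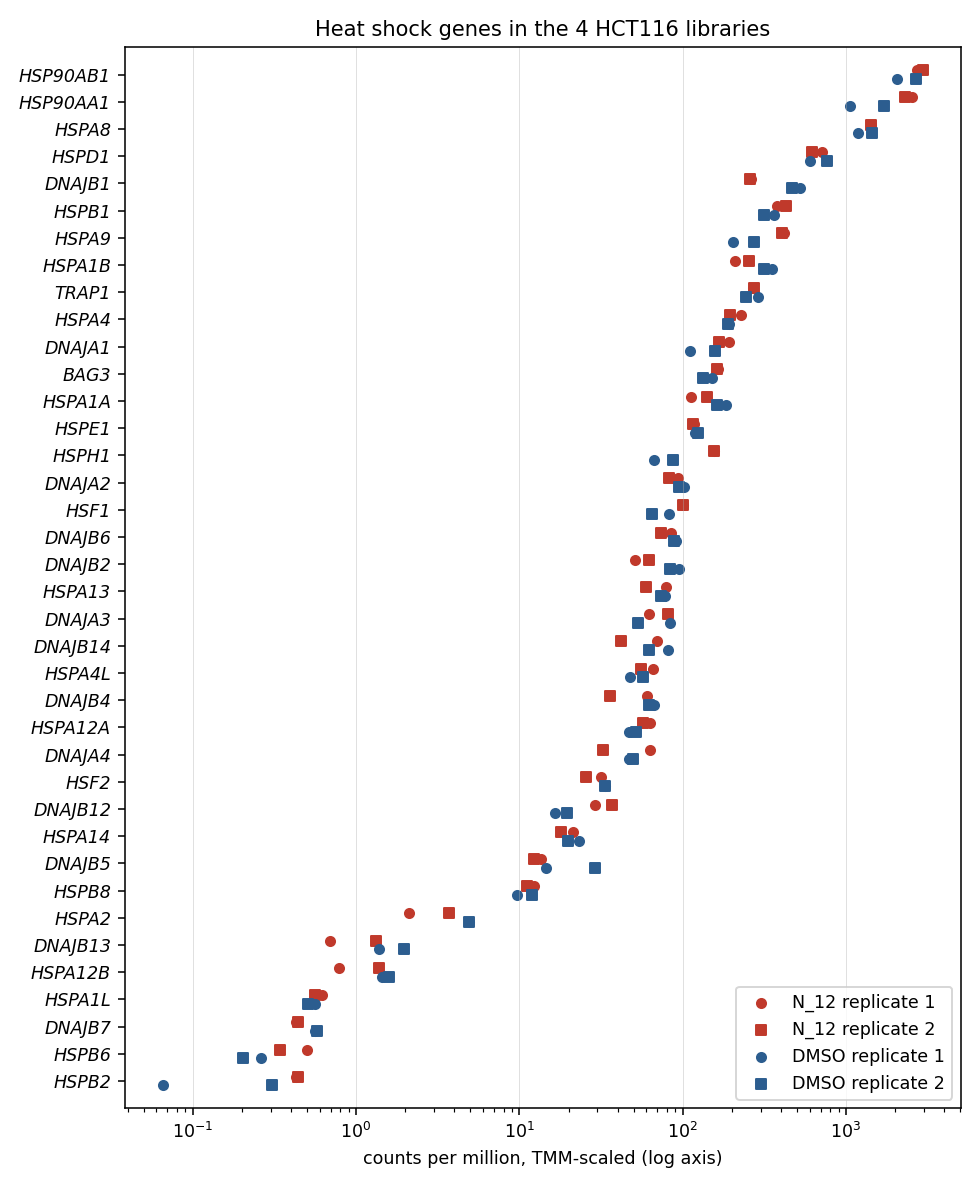
TMM-scaled CPM of the 38 tested heat shock genes (log axis, ordered by mean) in each N_12 library (red) and DMSO library (blue), with circles for replicate 1 and squares for replicate 2. Levels run from under 1 CPM (HSPB2, HSPB6) to 2963 CPM (HSP90AB1 in N_12 replicate 2), and red and blue marks are clearly apart for HSPH1, HSPA9 and DNAJB1.

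HSPH1 (ENSG00000120694) stood at 155 and 155 CPM in N_12 libraries, against 66.5 and 87.5 CPM in DMSO libraries. The groups did not overlap, and DMSO replicate 1 was the lowest. The means were 155 ± 0.247 CPM in N_12 and 77.0 ± 14.8 CPM in DMSO (SD, n = 2 each). The log2 fold change was 1.01 (SE 0.16, 95% interval 0.63 to 1.38, edgeR adjusted p = 0.0264). No 50-base stretch of its longest coding transcript occurs in transcripts of another gene (GENCODE 29). The call did not hold without DMSO replicate 1 (log2 fold change 0.82, adjusted p = 0.0747), nor without N_12 replicate 1 (0.99, adjusted p = 0.167) or N_12 replicate 2 (0.98, adjusted p = 0.185). In both fits without an N_12 library edgeR called 0 of all tested genes, with 2855 and 2761 at an unadjusted p under 0.05. Over all alternatives the adjusted p ran from 1.78e-05 to 0.185.

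DNAJB1 (ENSG00000132002) stood at 262 and 256 CPM in N_12 libraries, against 523 and 465 CPM in DMSO libraries. Both N_12 libraries were well below both DMSO libraries. The means were 259 ± 3.59 CPM in N_12 and 494 ± 41.1 CPM in DMSO (SD, n = 2 each). The log2 fold change was -0.93 (SE 0.13, 95% interval -1.23 to -0.63, edgeR adjusted p = 0.0178). Without either DMSO library the call was kept (adjusted p = 0.0379 without replicate 1 and 0.0108 without replicate 2). Without N_12 replicate 1 or N_12 replicate 2 it was lost (0.131 and 0.135), with the log2 fold change at -0.96 and -0.94. The ratio of HSPH1 to DNAJB1 CPM was 0.591 and 0.604 in N_12 libraries, against 0.127 and 0.188 in DMSO libraries.

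Promoter windows were examined because HSF1 acts through a known motif. The heat shock element was searched as 3 alternating units (GAA and TTC in turn, with 2 unspecified bases between units) and as 2 units. Both start letters were searched, which covers both strands, since GAA and TTC are reverse complements. The longer form always contains the shorter. Only exact matches were counted. The windows were RefSeq's (GRCh38.p14), of 300 bases, 250 before and 50 after a start site, and 39 of the 43 members had at least 1. A 3-unit element was found in 7 of these 39 genes (17.9%), against 0.608% of the 27305 genes with such windows. A 2-unit element was found in 20 of 39 (51.3%), against 16.2%. The windows of 6 members are shown because they span the responses seen: HSPH1, which rose (chr13:31162339-31162638, minus strand), DNAJB1, which fell (chr19:14518348-14518647, minus strand), HSP90AA1 (chr14:102086995-102087294, minus strand), HSP90AB1 (chr6:44247693-44247992, plus strand), HSPA8 (chr11:123062087-123062386, minus strand) and HSPA1A (chr6:31815293-31815592, plus strand). Each is written in the direction of its gene, and capitals mark the 2-unit elements, which form 3-unit elements where they run on.
HSPH1: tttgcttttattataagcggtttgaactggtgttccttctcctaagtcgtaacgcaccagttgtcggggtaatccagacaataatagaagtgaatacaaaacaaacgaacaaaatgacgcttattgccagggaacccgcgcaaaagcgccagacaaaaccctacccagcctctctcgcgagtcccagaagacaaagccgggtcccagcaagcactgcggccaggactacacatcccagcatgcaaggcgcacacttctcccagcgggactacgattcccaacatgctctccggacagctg
DNAJB1: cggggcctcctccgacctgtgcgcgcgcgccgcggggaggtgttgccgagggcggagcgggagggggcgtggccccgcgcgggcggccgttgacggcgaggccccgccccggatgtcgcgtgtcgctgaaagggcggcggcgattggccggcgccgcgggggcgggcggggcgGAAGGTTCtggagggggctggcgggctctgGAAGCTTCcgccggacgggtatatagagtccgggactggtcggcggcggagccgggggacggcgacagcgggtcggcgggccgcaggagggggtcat
HSP90AA1: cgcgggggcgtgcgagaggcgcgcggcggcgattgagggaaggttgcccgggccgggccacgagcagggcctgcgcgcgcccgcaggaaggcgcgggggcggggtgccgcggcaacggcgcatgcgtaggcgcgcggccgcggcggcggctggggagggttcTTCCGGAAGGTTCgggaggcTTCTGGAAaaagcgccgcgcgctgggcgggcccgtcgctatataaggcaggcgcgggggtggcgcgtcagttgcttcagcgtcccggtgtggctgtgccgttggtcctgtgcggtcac
HSP90AB1: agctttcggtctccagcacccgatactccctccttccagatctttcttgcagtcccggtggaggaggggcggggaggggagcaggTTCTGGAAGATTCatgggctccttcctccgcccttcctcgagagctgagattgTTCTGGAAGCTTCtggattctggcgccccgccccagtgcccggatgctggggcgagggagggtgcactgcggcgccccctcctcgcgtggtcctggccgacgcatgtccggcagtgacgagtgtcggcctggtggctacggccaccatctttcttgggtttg
HSPA8: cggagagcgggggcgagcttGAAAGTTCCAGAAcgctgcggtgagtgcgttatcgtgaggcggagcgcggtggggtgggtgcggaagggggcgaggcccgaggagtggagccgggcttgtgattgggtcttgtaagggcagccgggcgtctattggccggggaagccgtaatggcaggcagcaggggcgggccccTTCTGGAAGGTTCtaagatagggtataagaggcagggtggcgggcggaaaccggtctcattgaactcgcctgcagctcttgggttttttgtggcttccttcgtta
HSPA1A: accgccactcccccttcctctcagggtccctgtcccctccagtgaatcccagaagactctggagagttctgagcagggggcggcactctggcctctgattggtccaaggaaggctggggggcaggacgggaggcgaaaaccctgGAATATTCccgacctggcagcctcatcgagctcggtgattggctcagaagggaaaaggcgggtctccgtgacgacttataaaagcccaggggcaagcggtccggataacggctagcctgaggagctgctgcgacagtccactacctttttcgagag

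The HSPH1 window held neither form, while this DNAJB1 window held 2 separate 2-unit elements and the HSPA1A window held 1. The HSP90AA1 window shown had a 3-unit element and a separate 2-unit one. The HSP90AB1 and HSPA8 windows shown had a pair of 3-unit elements each. DNAJB1, HSP90AA1 and HSP90AB1 also have windows at other start sites, which are not shown. Of these, the DNAJB1 window at chr19:14517888-14518187 held 1 2-unit element, and the others held neither form. Members with and without the motif were found on both sides of 0. Members were grouped by the elements in any of their windows. The 6 tested members with a 3-unit element (DNAJA1, DNAJB6, HSP90AA1, HSP90AB1, HSPA8 and HSPD1) had log2 fold changes from -0.18 to 0.80, with a median of 0.19. The 12 with a 2-unit element only ran from -0.93 to 0.84 (median 0.05), and the 16 with neither ran from -0.76 to 1.01 (median -0.10). The 0.84 is that of HSPB6, which had few reads. Not all of these elements are separate. The windows of HSPA1A and HSPA1L overlap by 241 bases on opposite strands, and the same element was counted for both genes. These groups rest on exact matches, and an element with 1 differing base was missed. After the 2-unit element of HSPA1A the next unit reads gac, and after 1 of those of DNAJB1 it reads gag. Each differs from GAA by 1 base, so the search does not show that a gene lacks a longer element. A match is a description of letters in a window, and binding was not measured.

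**Figure D2:**
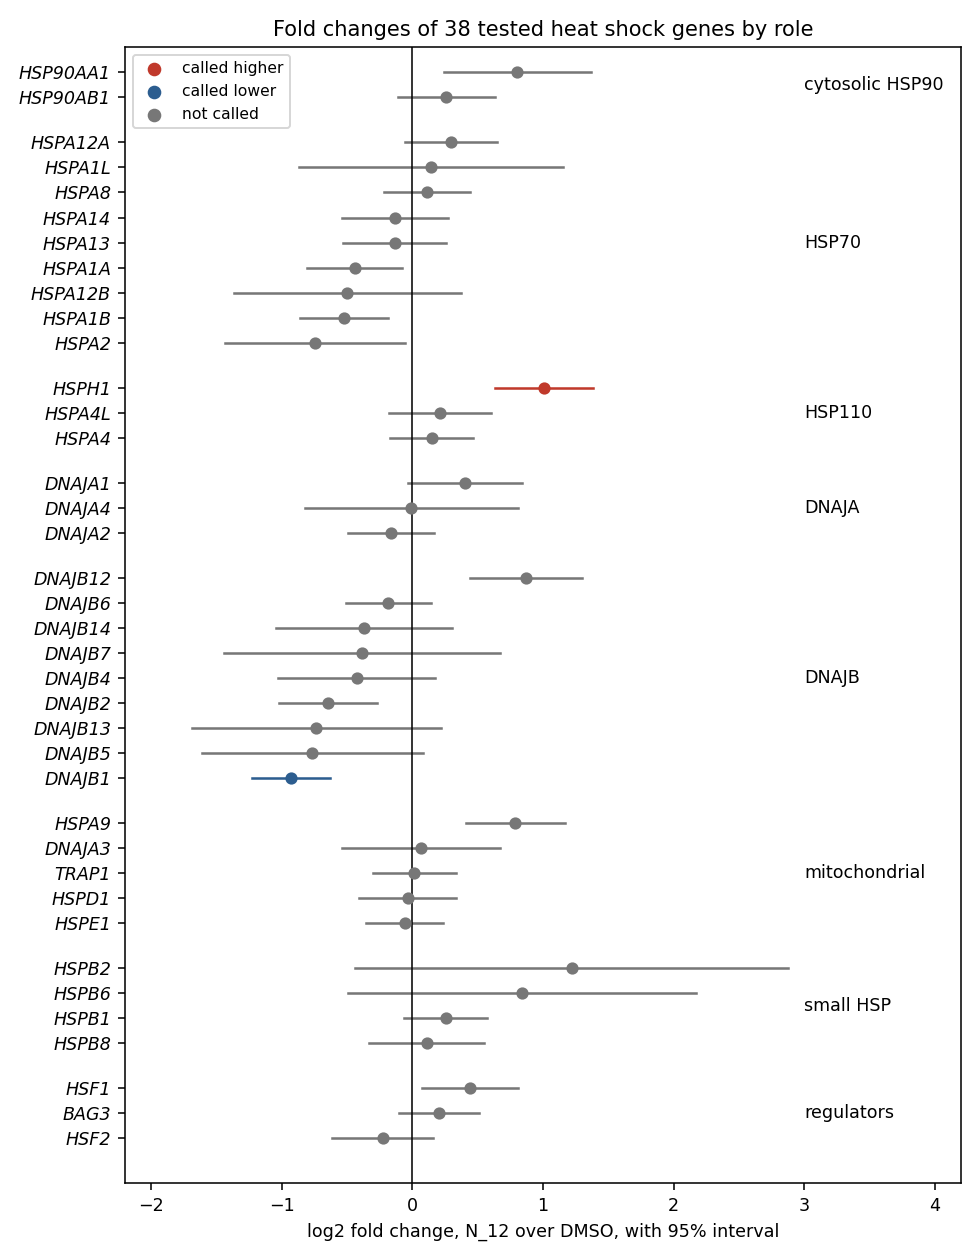
Log2 fold changes of the 38 tested genes, N_12 over DMSO (points) with 95% intervals (lines) from edgeR, grouped by role; red is called higher, blue called lower and grey not called. HSPH1 (1.01) and DNAJB1 (-0.93) are the 2 called genes, and 8 of the 9 tested DNAJB genes lie left of 0.

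The cytosolic HSP90 genes had the highest mean CPM of the set in either group, although in DMSO replicate 1 HSPA8 exceeded HSP90AA1. HSP90AA1, the stress-inducible alpha form, stood at 2549.9 and 2300.4 CPM in N_12 libraries, against 1064 and 1712 CPM in DMSO libraries. N_12 was above DMSO in every pairing, but the DMSO libraries themselves differed 1.61-fold. Its log2 fold change was 0.80 (SE 0.23, interval 0.24 to 1.37), and it was not called (edgeR adjusted p = 0.128). With DMSO replicate 1 left out the value was 0.50 (adjusted p = 0.290), and with DMSO replicate 2 left out it was 1.19 and was called (adjusted p = 0.00502). Over all alternatives its adjusted p ran from 0.00190 to 0.381, and DESeq2 called it higher (adjusted p = 0.0182). HSP90AB1, the constitutive beta form, stood at 2724 and 2963 CPM in N_12 libraries, against 2058 and 2690.3 CPM in DMSO libraries. Its log2 fold change of 0.26 (interval -0.11 to 0.63) was not called (edgeR adjusted p = 0.383). The ratio of HSP90AA1 to HSP90AB1 was 0.936 and 0.776 in N_12 libraries, against 0.517 and 0.637 in DMSO libraries. Processed copies of both genes exist: 21.4% of the 50-base stretches of HSP90AA1 and 18.8% of those of HSP90AB1 occur in transcripts of other genes, so a part of their counts depends on how reads were assigned.

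The HSP70 genes include inducible and constitutive forms, and edgeR as reported called none of them. HSPA1A, an inducible cytosolic HSP70, stood at 113 and 141 CPM in N_12 libraries, against 183 and 161 CPM in DMSO libraries. HSPA1B, its near-identical neighbour on chromosome 6, stood at 210.4 and 254 CPM in N_12 libraries, against 353 and 314 CPM in DMSO libraries. Neither pair of groups overlapped, and N_12 was the lower in each. The log2 fold changes were -0.44 (interval -0.80 to -0.07, edgeR adjusted p = 0.166) and -0.52 (interval -0.86 to -0.18, edgeR adjusted p = 0.104), and neither gene was called. Since 72.6% of the 50-base stretches of HSPA1A and 73.5% of those of HSPA1B are shared with other genes, mainly each other, their counts were also summed before the fit, an alternative chosen after seeing the data. The sum stood at 323 and 396 CPM in N_12 libraries, against 536 and 476 CPM in DMSO libraries, with a log2 fold change of -0.49 (SE 0.15, interval -0.83 to -0.15, edgeR adjusted p = 0.119). HSPA8, the constitutive HSP70 of the cytosol, stood at 1412 and 1426 CPM in N_12 libraries, against 1178 and 1441 CPM in DMSO libraries. Its groups overlapped, and the log2 fold change was 0.12 (interval -0.21 to 0.44, edgeR adjusted p = 0.675). The ratio of HSPA1A plus HSPA1B to HSPA8 was 0.229 and 0.278 in N_12 libraries, against 0.455 and 0.330 in DMSO libraries.

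Other HSP70 genes were scarcer. HSPA2, best known for its role in male germ cells, stood at 2.11 and 3.73 CPM in N_12 libraries, against 4.89 and 4.90 CPM in DMSO libraries, with a log2 fold change of -0.74 (interval -1.43 to -0.06, edgeR adjusted p = 0.201). HSPA12A, a distant relative of HSP70, had a log2 fold change of 0.30, HSPA13 of -0.14 and HSPA14, a partner of the ribosome-associated J-domain protein DNAJC2, of -0.13. HSPA6, a strictly inducible form, had 4 and 0 counts in N_12 libraries and 0 and 0 in DMSO libraries. It was not tested, and a count of 0 allows up to 0.0753 CPM in N_12 replicate 2, and 0.0964 and 0.101 CPM in DMSO replicates 1 and 2, for counting error only. HSPA1L (0.617 and 0.564 CPM in N_12 libraries, 0.557 and 0.510 CPM in DMSO libraries) and HSPA12B stayed below 2 CPM in every library. Of the 9 tested HSP70 genes edgeR called 0. An unadjusted p under 0.05 was found for 3, all lower, against 21.8% of all tested genes in either direction. They were HSPA2 and the near-identical HSPA1A and HSPA1B, which are not separate evidence. Limma-voom called 0 and DESeq2 called 1, HSPA1B, as lower. In the HSP110 family HSPA4 and HSPA4L had log2 fold changes of 0.15 (interval -0.17 to 0.47) and 0.21 (interval -0.18 to 0.60), against 1.01 for HSPH1. The ratio of HSPH1 to HSPA8 was 0.109 and 0.109 in N_12 libraries, against 0.0564 and 0.0607 in DMSO libraries.

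**Figure D3:**
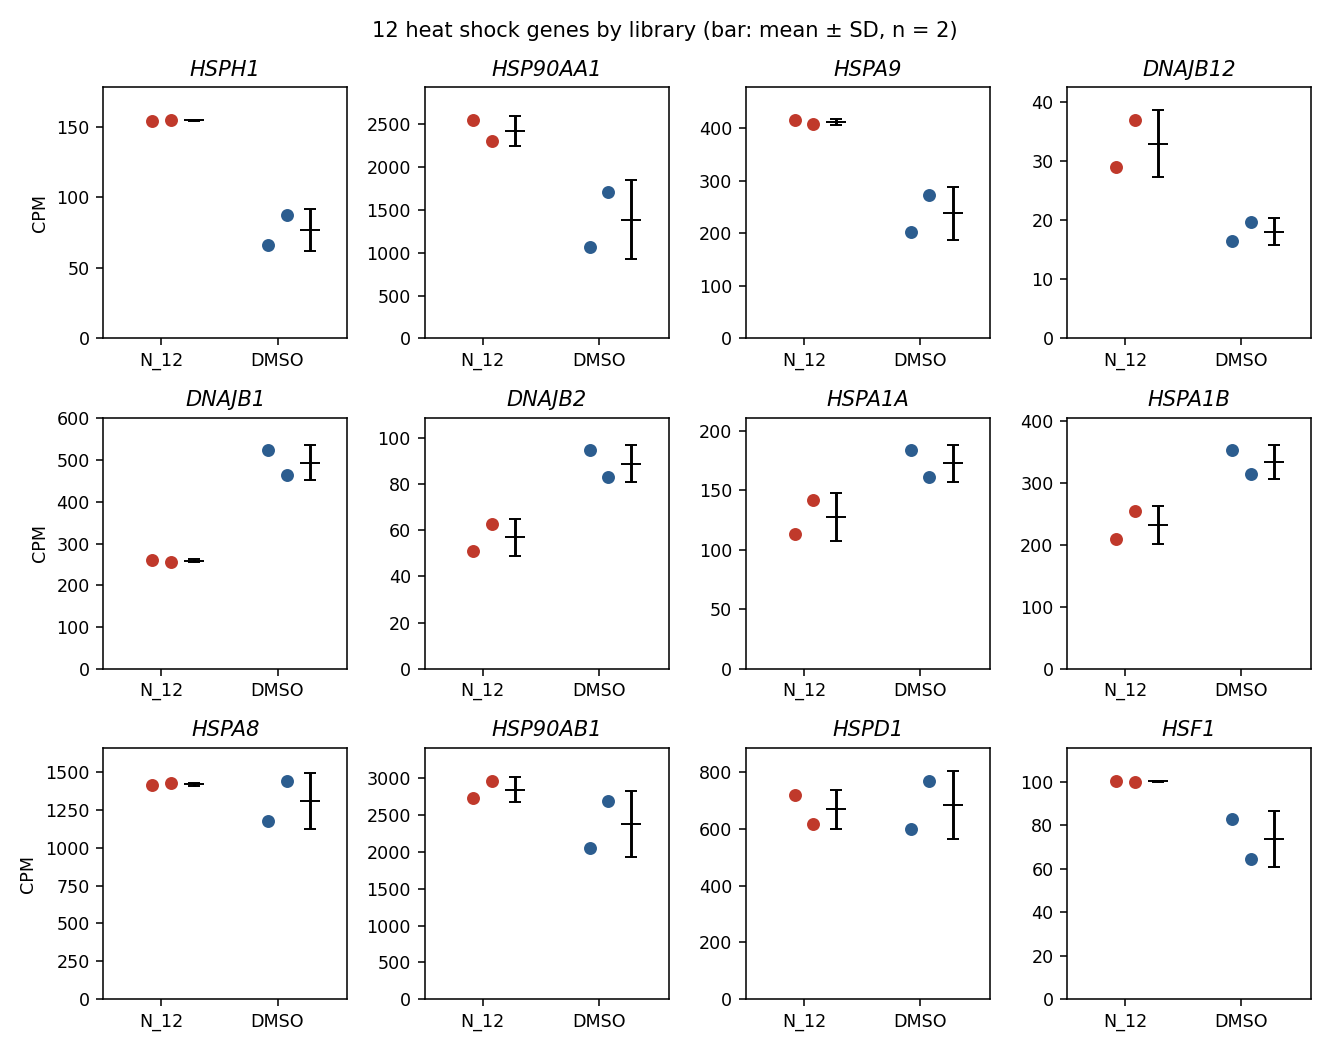
TMM-scaled CPM of 12 heat shock genes in each N_12 library (red, left) and DMSO library (blue, right), with the mean and SD beside them (n = 2 each, axes from 0). For HSPH1, HSP90AA1, HSPA9, DNAJB12 and HSF1 both N_12 libraries are above both DMSO libraries, for DNAJB1, DNAJB2, HSPA1A and HSPA1B they are below, and for HSPA8 and HSPD1 the groups overlap.

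The J-domain proteins, which choose clients for HSP70, had negative log2 fold changes for most type B genes. Of 9 tested DNAJB genes 8 had a negative log2 fold change and 1 was called, DNAJB1. The median was -0.43, and 7 of the 9 had no overlap, with N_12 below DMSO. These 7 include scarce genes. DNAJB7 had 18 and 18 counts in N_12 libraries and 17 and 17 in the smaller DMSO libraries, and DNAJB13 reached at most 1.97 CPM. Over all tested genes 51.0% lay above 0, and 26.8% had N_12 below DMSO without overlap. DNAJB2, a J-domain protein that sorts clients to the proteasome, stood at 51.2 and 62.6 CPM in N_12 libraries, against 94.5 and 83.2 CPM in DMSO libraries. Its log2 fold change was -0.64 (SE 0.16, interval -1.02 to -0.27, edgeR adjusted p = 0.0826). It was not called, but 3 alternatives called it lower: DESeq2 (adjusted p = 0.0103), edgeR with GC and length correction (adjusted p = 0.0279) and edgeR with a replicate block (adjusted p = 0.0410). Its adjusted p ran from 0.0103 to 0.336 over all alternatives. DNAJB5 stood at 13.5 and 12.2 CPM in N_12 libraries, against 14.5 and 29.2 CPM in DMSO libraries. DMSO replicate 2 alone was high, and the log2 fold change of -0.76 was not called (edgeR adjusted p = 0.269). Leaving out DMSO replicate 1 gave -1.18 and a call (adjusted p = 0.0265), while leaving out DMSO replicate 2 gave -0.17 (adjusted p = 0.799). DNAJB13, a gene of sperm flagella and motile cilia, had 0.688 and 1.32 CPM in N_12 libraries and 1.38 and 1.97 CPM in DMSO libraries. In DNAJB4, DNAJB6, DNAJB7 and DNAJB14 the log2 fold changes lay between -0.43 and -0.18, and none was called. DNAJB6 restrains the aggregation of polyglutamine proteins.

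DNAJB12, which acts at the endoplasmic reticulum membrane in the disposal of misfolded membrane proteins, ran against the other type B genes. It stood at 28.9 and 36.9 CPM in N_12 libraries, against 16.4 and 19.6 CPM in DMSO libraries. N_12 was higher without overlap, with a log2 fold change of 0.87 (SE 0.19, interval 0.44 to 1.299, edgeR adjusted p = 0.0583). That is just outside the threshold, and 4 alternatives called it higher, among them DESeq2 (adjusted p = 0.00385), over a range of 0.00385 to 0.239. Among type A genes DNAJA1, the main cytosolic partner of HSPA8, stood at 191 and 166 CPM in N_12 libraries, against 112 and 158 CPM in DMSO libraries (log2 fold change 0.40, interval -0.03 to 0.84, edgeR adjusted p = 0.261). N_12 was above DMSO, but DMSO replicate 2 came close to N_12 replicate 2. The ratio of DNAJB1 to DNAJA1 was 1.37 and 1.55 in N_12 libraries, against 4.69 and 2.94 in DMSO libraries. DNAJA2 had a log2 fold change of -0.16, and DNAJA4 had 63.3 and 32.6 CPM in N_12 libraries and 46.8 and 49.6 CPM in DMSO libraries, with a 1.94-fold difference between the N_12 libraries. None of the 3 type A genes was called by edgeR, DESeq2 or limma-voom, and none had an unadjusted p under 0.05.

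**Figure D4:**
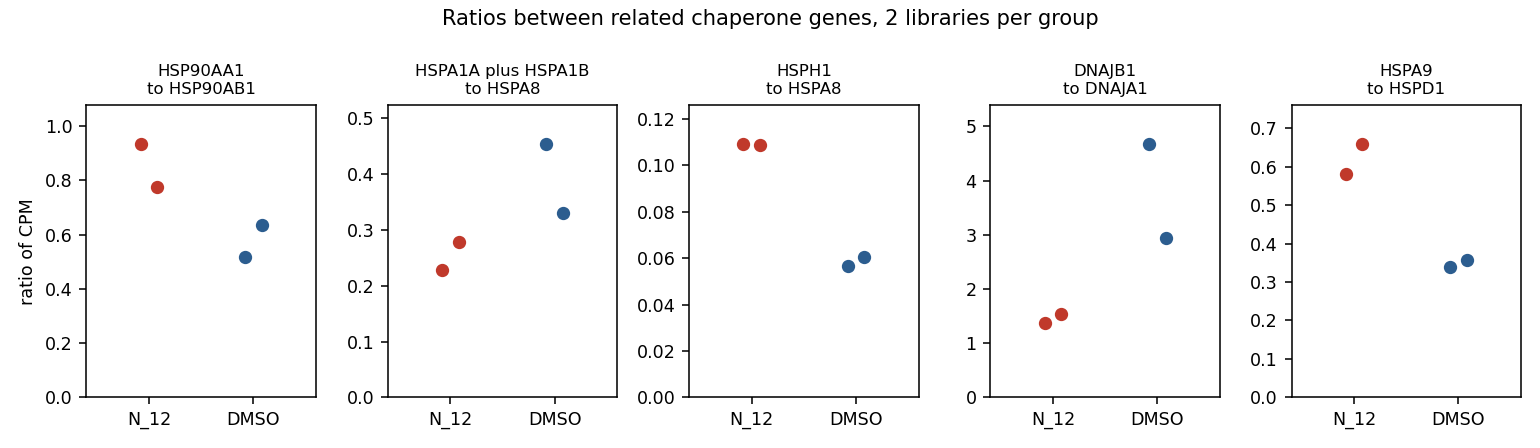
Ratios of TMM-scaled CPM between related chaperone genes in each N_12 library (red, left) and DMSO library (blue, right), axes from 0. The ratios HSP90AA1 to HSP90AB1, HSPH1 to HSPA8 and HSPA9 to HSPD1 are higher in both N_12 libraries, and DNAJB1 to DNAJA1 and HSPA1A plus HSPA1B to HSPA8 are lower; no test was made of ratios.

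In mitochondria HSPA9 (mortalin), the HSP70 that pulls proteins through the inner membrane and folds them, stood apart from the chaperonin genes. It stood at 416 and 408 CPM in N_12 libraries, against 203 and 274 CPM in DMSO libraries. The groups did not overlap, and the log2 fold change was 0.79 (SE 0.16, interval 0.41 to 1.17, edgeR adjusted p = 0.0540), so the gene missed the threshold. Its adjusted p ran from 0.00153 to 0.232 over the alternatives, of which 6 called it higher, among them DESeq2 (0.00207) and the fit without DMSO replicate 2 (0.0154). Without DMSO replicate 1 the log2 fold change was 0.59 (adjusted p = 0.210). HSPD1, the HSP60 chaperonin, stood at 717 and 618 CPM in N_12 libraries, against 598 and 768 CPM in DMSO libraries. HSPE1, its HSP10 lid, stood at 118 and 115 CPM in N_12 libraries, against 119 and 123 CPM in DMSO libraries. The groups overlapped for HSPD1, and N_12 lay just below DMSO for HSPE1. Their log2 fold changes were -0.03 (interval -0.40 to 0.34) and -0.06 (interval -0.35 to 0.24). These genes lie head to head on chromosome 2. The RefSeq promoter window of HSPE1 overlaps an HSPD1 window on the opposite strand (chr2:197500225-197500524) by 204 bases, and neither of these holds a heat shock element. The other HSPD1 window (chr2:197499791-197500090), which holds the 3-unit elements, does not overlap that of HSPE1. TRAP1, the mitochondrial HSP90, stood at 268 and 274 CPM in N_12 libraries, against 291 and 246 CPM in DMSO libraries (log2 fold change 0.02, interval -0.30 to 0.33). DNAJA3, the mitochondrial J-domain protein, stood at 62.1 and 81.7 CPM in N_12 libraries, against 84.0 and 53.5 CPM in DMSO libraries (0.06, interval -0.54 to 0.67). Overlap with neighbours is large for TRAP1, of whose exon bases 29.3% lie on the other strand from DNASE1 exons, and whether the counting used strand is not given. Of the 50-base stretches of HSPE1, 52.9% occur in transcripts of other genes, among them HSPD1, the read-through gene HSPE1-MOB4 and pseudogenes, and for HSPD1 the share is 25.0%. The ratio of HSPA9 to HSPD1 was 0.580 and 0.660 in N_12 libraries, against 0.339 and 0.356 in DMSO libraries.

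Among small heat shock proteins only HSPB1 was abundant. HSPB1 (HSP27), a holdase that also binds actin, stood at 379 and 430.5 CPM in N_12 libraries, against 361 and 317 CPM in DMSO libraries. N_12 was above DMSO without overlap, and the log2 fold change of 0.26 (interval -0.06 to 0.58) was not called (edgeR adjusted p = 0.322). HSPB8, which works with BAG3 in autophagy of aggregates, stood at 12.2 and 11.2 CPM in N_12 libraries, against 9.74 and 11.97 CPM in DMSO libraries. HSPB2 had 18 and 18 counts in N_12 libraries and 2 and 9 in DMSO libraries, and HSPB6 had 21 and 14 counts in N_12 libraries and 8 and 6 in DMSO libraries. Their log2 fold changes of 1.22 (interval -0.44 to 2.88) and 0.84 (interval -0.49 to 2.17) rest on these few reads. Much of either gene also overlaps other genes, with 53.9% of the HSPB2 exon bases shared with the read-through gene HSPB2-C11orf52 on the same strand and 46.9% facing CRYAB on the other strand. HSPB7 and HSPB9 had at most 8 counts in a library, HSPB3 had 0 in all 4, and none of these was tested. DNAJB8, the remaining untested gene, had 2 and 3 counts in N_12 libraries and 0 and 0 in DMSO libraries. Of the 4 tested small heat shock genes edgeR, DESeq2 and limma-voom called 0, and 0 had an unadjusted p under 0.05.

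None of the regulators of the response was called. HSF1, the master activator, stood at 100.4 and 99.9 CPM in N_12 libraries, against 82.8 and 64.6 CPM in DMSO libraries, without overlap. Its log2 fold change was 0.44 (SE 0.16, interval 0.07 to 0.81, edgeR adjusted p = 0.167). HSF2, a partner of HSF1, stood at 31.6 and 25.6 CPM in N_12 libraries, against 33.6 and 33.4 CPM in DMSO libraries (-0.23, interval -0.61 to 0.16, edgeR adjusted p = 0.465). BAG3, a nucleotide exchange factor of HSP70 and itself an HSF1 target, stood at 165 and 163 CPM in N_12 libraries, against 150.5 and 134 CPM in DMSO libraries (0.21, interval -0.10 to 0.51, edgeR adjusted p = 0.402). None of the 3 was called by edgeR, DESeq2 or limma-voom, and HSF1 alone had an unadjusted p under 0.05. Of the inducible genes named at the start, edgeR as reported called HSPH1 higher and DNAJB1 lower and did not call HSPA1A, HSPA1B or BAG3, while HSPA1B was called lower by DESeq2 (adjusted p = 0.0324) and with GC and length correction in edgeR (adjusted p = 0.0393).

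Levels were set side by side per length, as mean CPM per kilobase of exons (GENCODE 29). The length joins the exons of all annotated transcripts of a gene. It was 4849 bases for HSPA8, 5248 for HSP90AA1 and 8390 for HSPH1. Levels and ranks between genes therefore depend on which transcripts are annotated, whichever of them the cells make. HSP90AB1 came first, at 954 in N_12 and 797 in DMSO. HSP90AA1 followed in N_12, at 462, and HSPA8 ranked 3 there, at 293. In DMSO HSPA8 and HSP90AA1 were level, at 270.0 and 265, where the HSP90AA1 libraries differed by more than that gap. DNAJB1 ranked 7 in N_12, at 70.5, against 6 in DMSO, at 134, and HSPH1 ranked 16 in N_12, at 18.4, against 22 in DMSO, at 9.18. The 43 genes took 1.09% and 1.09% of all counts in N_12 libraries, against 0.821% and 0.983% in DMSO libraries. HSP90AA1 and HSP90AB1 made up 0.533% and 0.538% of all counts in N_12 libraries, against 0.306% and 0.435% in DMSO libraries. The DMSO libraries thus differed more in these sums than the N_12 libraries did. HSP90AA1, DNAJA1, HSPA9, HSPH1, HSP90AB1, HSPD1 and HSPA8 were all lower in DMSO replicate 1 than in DMSO replicate 2, by 1.22-fold (HSPA8) to 1.61-fold (HSP90AA1). Over the 38 tested members 19 were higher in DMSO replicate 2 and 19 in DMSO replicate 1. The median absolute log2 ratio between DMSO replicates was 0.21 for members and 0.17 for all tested genes. Between N_12 replicates it was similar, at 0.20 for members and 0.22 for all tested genes.

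Genes around the heat shock proteins were counted from lists of related function. DNAJC3 and DNAJC10 stand both among the DNAJC genes and among the chaperones of the endoplasmic reticulum lumen, and were counted in each. For comparison, 51.0% of all tested genes lay above 0 and 21.8% had an unadjusted p under 0.05. Of all tested genes edgeR called 2.25%, DESeq2 8.68% and limma-voom 2.22%, and the counts of each list are to be read beside these shares. EdgeR here is the fit as reported. With GC and length correction it called 6.60% of all tested genes, and with a replicate block 6.83%. Every list had calls under at least 1 of these alternatives. Of 23 tested HSP90 co-chaperones edgeR called 0 (median 0.15, 14 above 0), DESeq2 called 1 and limma-voom 0, and 5 had an unadjusted p under 0.05. NUDC, a co-chaperone of HSP90 named for nuclear distribution, had the smallest p, at 182 and 179 CPM in N_12 libraries and 128 and 123 CPM in DMSO libraries (log2 fold change 0.53, edgeR adjusted p = 0.0757), and PIH1D1 followed (-0.43, edgeR adjusted p = 0.162). Of 10 HSP70 co-chaperones of the BAG and HSPBP type edgeR, DESeq2 and limma-voom called 0 (median 0.02), with 1 at an unadjusted p under 0.05. The smallest p-values were those of TTC1 (log2 fold change 0.73, edgeR adjusted p = 0.171) and HSPBAP1 (0.36, edgeR adjusted p = 0.375). Among 30 DNAJC genes edgeR and limma-voom called 0 (median 0.08), DESeq2 called 3 higher and 1 lower, and 8 had an unadjusted p under 0.05. DNAJC14 had 71.7 and 47.1 CPM in N_12 libraries, against 31.1 and 29.4 CPM in DMSO libraries (log2 fold change 0.97, edgeR adjusted p = 0.0647), and DNAJC11 followed (0.55, edgeR adjusted p = 0.0949).

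The TRiC chaperonin and prefoldin, which fold actin and tubulin, gave 0 calls by edgeR and limma-voom among 19 genes (median -0.01), with 1 higher and 1 lower by DESeq2 and 3 at an unadjusted p under 0.05. CCT5, a TRiC subunit, had 278 and 288 CPM in N_12 libraries, against 153 and 193 CPM in DMSO libraries (log2 fold change 0.71, edgeR adjusted p = 0.0567), while PFDN5, a prefoldin subunit, had a log2 fold change of -0.58 (edgeR adjusted p = 0.0774). Of 24 genes of mitochondrial protein import and quality control edgeR and limma-voom called 0 (median -0.06), DESeq2 called 1 higher and 1 lower, and 5 had an unadjusted p under 0.05. TOMM20, a receptor of the outer membrane, had 253 and 223 CPM in N_12 libraries, against 344 and 336 CPM in DMSO libraries (-0.51, edgeR adjusted p = 0.0850). TIMM44, which anchors HSPA9 at the import channel, had 46.7 and 46.7 CPM in N_12 libraries, against 34.5 and 31.9 CPM in DMSO libraries (log2 fold change 0.49, edgeR adjusted p = 0.123). Of 18 other stress-induced HSF1 targets edgeR and limma-voom called 0 (median -0.09), DESeq2 called 2 lower, and 5 had an unadjusted p under 0.05. JMJD6 had the smallest p of these, at 61.2 and 68.0 CPM in N_12 libraries, against 92.6 and 88.3 CPM in DMSO libraries (-0.49, edgeR adjusted p = 0.109), followed by SLC5A3 (-0.47, edgeR adjusted p = 0.134). Of 10 tested HSF family genes and regulators edgeR, DESeq2 and limma-voom called 0 (median 0.27), with 4 at an unadjusted p under 0.05, HSF4 having the smallest (log2 fold change -0.60, edgeR adjusted p = 0.125), followed by EP300 (0.40, edgeR adjusted p = 0.146). Of 31 proteasome genes 25 lay above 0 (median 0.16). EdgeR and limma-voom called 0 of them, DESeq2 called 3 higher, and 12 had an unadjusted p under 0.05. PSMD7, a lid subunit, had 119 and 107 CPM in N_12 libraries, against 74.4 and 64.4 CPM in DMSO libraries (0.71, edgeR adjusted p = 0.0535), and PSMB2 followed (0.56, edgeR adjusted p = 0.0662). In the endoplasmic reticulum HSPA5 (BiP), the HSP70 of the lumen and no member of the set, fell to 1731 and 1718 CPM in N_12 libraries, against 3242 and 2683 CPM in DMSO libraries (-0.78, edgeR adjusted p = 0.0389). EdgeR called no other of the 15 tested chaperones of the lumen (median -0.20), and 2 were higher and 4 lower at an unadjusted p under 0.05. DESeq2 called 1 higher and 1 lower, and limma-voom 1 lower. HYOU1, a nucleotide exchange factor of HSPA5, stood at 482 and 488 CPM in N_12 libraries, against 353 and 307 CPM in DMSO libraries (0.56, edgeR adjusted p = 0.0718).

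**Figure D5:**
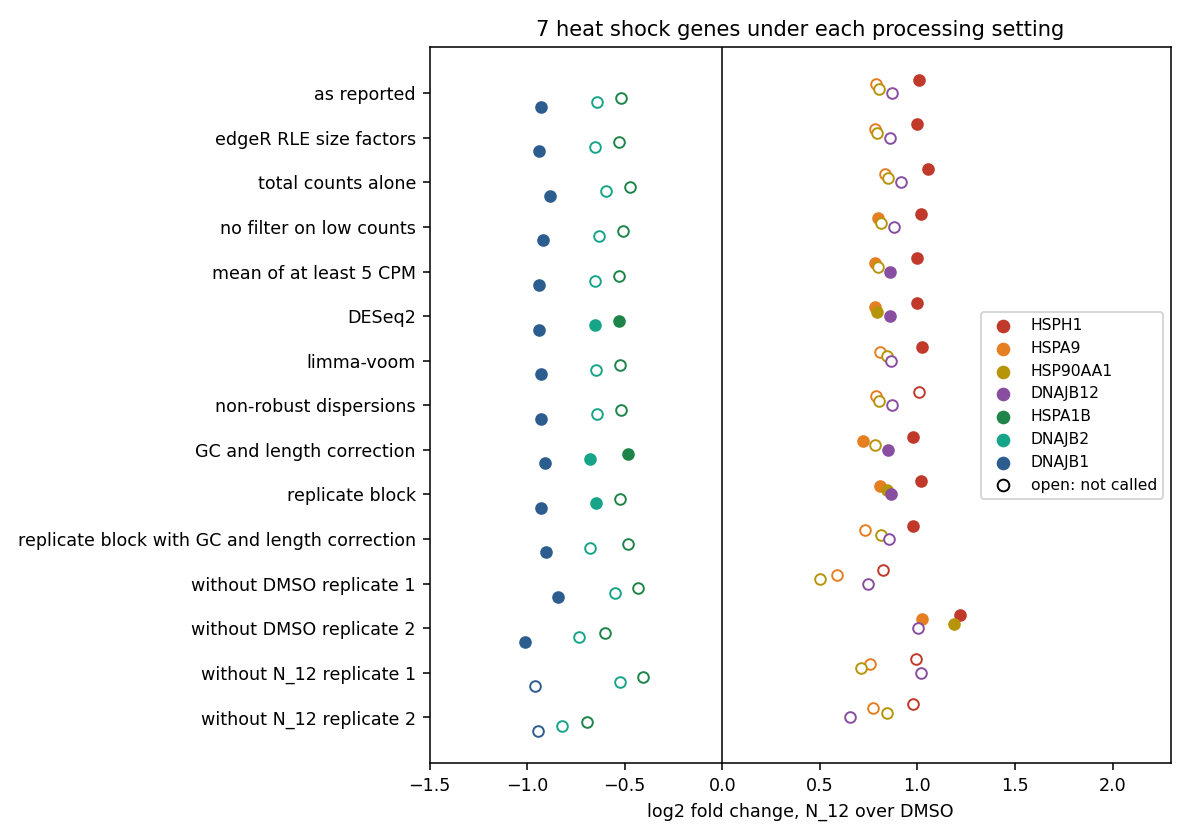
Log2 fold changes, N_12 over DMSO, of 7 heat shock genes under the reported fit and 14 alternatives (rows); filled circles are called at an adjusted p of 0.05 and open circles are not. Every value keeps its side of 0, DNAJB1 is called under 12 of the 14 alternatives and HSPH1 under 10, and no gene is called when either N_12 library is left out.

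The 7 members called under 2 or more alternatives kept their direction under all 14. This does not set them apart, since they were chosen by their calls and the alternatives reuse the same libraries. Most tested members kept 1 direction throughout, among them BAG3 and HSF1, which no alternative called. DNAJB1 ran from -1.01 to -0.84 over the 14 alternatives and HSPH1 from 0.82 to 1.22. HSPA9 ran from 0.59 to 1.02, HSP90AA1 from 0.50 to 1.19, DNAJB12 from 0.65 to 1.02, HSPA1B from -0.69 to -0.41 and DNAJB2 from -0.82 to -0.52. DESeq2 called 7 members on all 4 libraries, HSPH1, HSP90AA1, HSPA9 and DNAJB12 as higher and DNAJB1, DNAJB2 and HSPA1B as lower, in a fit that called 1225 genes, or 8.68% of all tested.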

How the data were processed

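The authors deposited raw read counts, unnormalized, for 20263 human Ensembl identifiers in 1 table. No source used here names the aligner, the counting tool or the strand setting. Per the submitters' processing notes, the builds are mouse genome builds, which do not match the human identifiers, so no coordinates from the counting are printed. Symbols were found for 20148 identifiers. The labels' titles gave group and replicate.

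The main analysis used edgeR 4.0.16 under R 4.3.3: TMM scaling (factors 0.98 to 1.02), edgeR's expression filter (14105 genes kept), robust quasi-likelihood test, Benjamini-Hochberg adjustment over all tested genes, two-sided, threshold 0.05. Called means past it. Standard errors come from the fold change and F statistic. Alternatives were other scalings and filters, DESeq2 1.42.0, limma-voom (limma 3.58.1, robust), non-robust dispersions, correction for GC content and length, a replicate block and leaving out each library. Replicate libraries were distinct: chi-square over its degrees of freedom was 57.2 in N_12 and 36.5 in DMSO. No list was tested as a set. Genes described are the called members, a panel of 15, the 5 highest and 5 lowest fold changes, further members in a clause to complete each family, and the called or smallest-p genes of each related list. The members and lists were chosen with earlier results of these data known.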

Additional observations from a re-analysis of the deposited data

How the results depend on the processing

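With 2 libraries per group, single calls depend on single libraries. Leaving out 1 library in turn, the count of called genes ran from 0 to 451 (317 with all 4), of members called higher from 0 to 3 and of members called lower from 0 to 2. Where an arm kept 1 library, it was assumed to vary like the other group. Without N_12 replicate 1 edgeR called 0 genes (2855 at an unadjusted p under 0.05, 11 of them members), and without N_12 replicate 2 again 0 (2761, 9 of them members). Over all genes DESeq2 called 1225, GC and length correction 930 and non-robust dispersions 131. Members called higher were 4 by DESeq2, 3 with GC and length correction, 3 with a mean of at least 5 CPM, 2 with no filter and 0 with non-robust dispersions (HSPH1 adjusted p = 0.0565). Members called lower were 3 by DESeq2 and 3 with GC and length correction. Same-numbered libraries did not deviate together (correlation -0.09 across genes). The labels do not say whether the number marks a shared culture or day. With 1 difference per group, this correlation cannot decide whether it does. A replicate block called 964 genes, with 4 members higher and 2 lower, and the replicate block with GC and length correction called 119 genes, with 1 member in each direction. Scaling by totals alone moved the share of higher calls to 46.2%, against 36.6%, and the median of all genes to 0.06. The median of the members stayed between -0.04 and 0.05. Values near 0 changed sign, none of them called, and the cause was not tested. HSPD1 was 0.013 with totals alone, and HSPE1 was 0.027 with GC and length correction and 0.028 when that went with the replicate block. Leaving out 1 library in turn, HSPA8 ran from -0.021 to 0.27, HSPD1 from -0.20 to 0.16 and TRAP1 from -0.10 to 0.14. Among members outside the 22 chosen by the naming rule, DNAJA4 ran from -0.58 to 0.37, DNAJA3 from -0.22 to 0.43, HSPA13 from -0.37 to 0.028 and HSPB8 from -0.030 to 0.27 over all alternatives, and none was called. Of the values of the 22 members under alternatives, 273 kept direction and side of the threshold, 19 were newly called, 6 lost a call and 8 changed sign. Low counts limit HSPB2, HSPB6 and DNAJB7.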
